A study of Mus musculus with 10 samples.

Results

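Interferon-induced genes whose products act against viruses, other than the best known families, were examined in mouse prostate cancer organoids treated to inhibit or to delete EZH2. The set held 40 genes, chosen by symbol from a list of effector genes, and all 40 were present among the 24043 gene rows of the chemical experiment and the 24016 of the genetic one. It spans the IFITM proteins and BST2, the MX proteins, RSAD2 and other RNA and nucleotide effectors, PARP, TRIM and PHF11 family members, nuclear body proteins, the IFI27 family with XAF1, signalling modulators, and the APOL9 pair with LGALS3BP and TOR3A. The rule used symbols and no measured value, although the list was drawn up with earlier results of these data known.

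Organoids are 3-dimensional cultures, and these came from the dorsal-lateral prostate of C57BL/6 mice aged 8 weeks. Cells of all 4 groups carried overexpressed MYC, floxed Ezh2 alleles and PSA-CreERT2, a recombinase that Tamoxifen activates and that a PSA promoter drives, so that recombination is limited to cells in which this promoter is active. All medium contained 10 nM R1881, a synthetic androgen. The chemical experiment compared DZNep at 1 µM (3 libraries) with its vehicle DMSO (3 libraries). The genetic experiment compared Tamoxifen at 1 µM (2 libraries) with its vehicle ethanol, or EtOH (2 libraries). RNA was taken at 3 days. The stated purpose of the series was to see how gene expression changed when EZH2, the methyltransferase that places the repressive mark on histone H3 lysine 27, was inhibited by drug or by deletion. DZNep blocks S-adenosylhomocysteine hydrolase and thereby acts on more methyltransferases than EZH2. Whether replicates came from different animals or cultures is not in the labels. The p-values therefore measure how far these libraries scatter, which may be technical scatter only.

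Interferons bind receptors on the cell surface and switch on a large set of genes through a transcription factor complex that contains STAT2 and IRF9 and binds a DNA element called the interferon-stimulated response element. The products act at nearly every step of infection. IFITM proteins stop viral membranes from fusing in endosomes, BST2 tethers budding particles to the cell surface, RSAD2 and CMPK2 alter the nucleotide pool, ISG20 degrades RNA, and PARP and TRIM enzymes attach ADP-ribose or ubiquitin to target proteins. Many of these genes are also expressed at a low level in epithelia in the absence of infection.

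The deposited values are log2(RPKM + 1), where RPKM is reads scaled to transcript length and to the size of the library. Levels below are given in RPKM, a per-length scale, and changes as differences of log2(RPKM + 1), which understate the change of genes near or below 1 RPKM. Between 15021 and 15404 genes were above 0 in a library, and the relative depth estimated from the lowest values lay between 0.758 and 1.15 of DMSO 1 in the chemical experiment and between 1 and 1.09 of EtOH 1 in the genetic one. The targeted gene EZH2 stood at 30.4, 29.8 and 27.1 RPKM in DMSO 1, 2 and 3 and at 22.5, 24.2 and 24.8 RPKM with DZNep (log2 change -0.28, SE 0.0612, adjusted p = 0.0142 by limma, and p = 0.1 in an exact permutation test, two-sided, the smallest it allows). It stood at 28.0 and 34.0 RPKM with EtOH and at 32.0 and 33.2 with Tamoxifen (log2 change 0.08, SE 0.0986, adjusted p = 0.635 by limma, exact permutation p = 1, with 0.333 the smallest possible). The log2 change with DZNep lost its call without DMSO 2 (adjusted p = 0.0641). A level per gene does not separate transcripts with and without the floxed exons, so it does not check the deletion. All 10 prostate epithelial markers examined were at 1 RPKM or more in every library, whereas of 15 immune cell markers between 8 and 12 were listed at 0 in a library, among them CD4, CD8A, MS4A1, NKG7, ITGAX and TYROBP in all 10 libraries.

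In vehicle-treated organoids the 40 genes covered a wide range of levels. In DMSO, 3 had a mean of at least 100 RPKM, 8 lay between 10 and 100, 16 between 1 and 10, and 13 below 1. IFITM3, IFITM2 and IFITM1 took 91.6% of the summed mean level of the set in DMSO and 91.8% in EtOH. The other 37 genes summed to between 234.9 and 240.3 RPKM in the DMSO libraries and between 230.2 and 238.4 in the EtOH libraries. With DZNep the same 37 summed to between 459.5 and 480.9 RPKM, and with Tamoxifen to between 282.8 and 287.9. These sums did not overlap between treated and vehicle libraries in either experiment. Among all genes tested singly, 26.1% were higher without overlap with DZNep and 36.6% with Tamoxifen. LGALS3BP (means of 18.9 RPKM in EtOH and 36.8 with Tamoxifen) and BST2 (10.3 and 22.0) made up much of the Tamoxifen rise.

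With DZNep, 28 of the 32 genes that could be tested rose, and 0 fell. RTP4, APOL9A, APOL9B, IFI27L2A and XAF1 rose most, with log2 changes between 1.97 and 3.03. The test was limma on log2(RPKM + 1) with p-values adjusted over the 11143 genes whose mean reached 1 RPKM, and a gene was called at an adjusted p under 0.05. Of all genes tested, 16.6% were called up, 11.1% down and 27.7% in either direction. The median log2 change was 0.95 over the 32 genes and 0.01 over all genes tested. Called genes with a log2 change of at least 1 numbered 16 here and 86, or 0.772%, among all genes tested. Libraries of the 2 groups did not overlap, with DZNep higher, for 29 of the 32 genes, against 26.1% of all genes. Of the 32, 5 (MX2, RSAD2, IFI44, SP100 and APOL9B) had a DMSO mean under 1 RPKM and passed the filter through their DZNep level. Of the 27 with a DMSO mean of at least 1 RPKM, 23 rose. All 5 are also among the 16 called genes with a log2 change of at least 1 and among the 29 without overlap. Those counts therefore include genes that entered through their DZNep level. In bulk RNA, more cells of a type and more RNA per cell cannot be told apart.

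**Figure D1:**
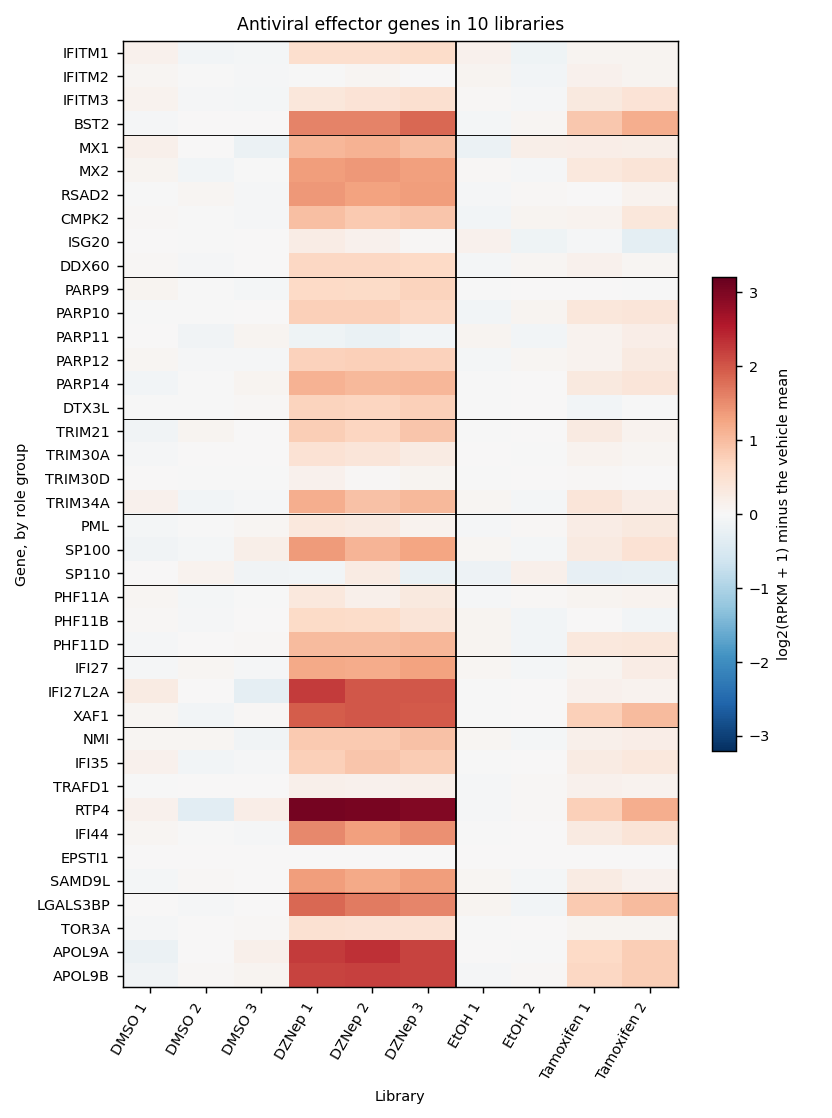
Level of each of the 40 genes (rows, by role group) in each of the 10 libraries (columns), as log2(RPKM + 1) minus the mean of the vehicle libraries of the same experiment (colour, from blue for lower to red for higher). The 3 DZNep columns are red for most genes and deepest for RTP4, while the 2 Tamoxifen columns are clearly red for a smaller number, among them BST2, XAF1, RTP4 and LGALS3BP.

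Stretches of promoter are printed here for 6 genes, to show the interferon response element beside genes that rose and genes that did not. Promoter windows of 300 bases, from 250 before to 50 after the start site, were taken from RefSeq (build GRCm38.p6, another build than the mm9 named by the submitters). Windows were matched by symbol for 31 of the 40 genes. The element was searched as TTTCNNTTTC, a TTTC repeated after 2 further bases, on both strands, so that GAAA repeats mark it on the opposite strand, and matches could overlap. Each stretch runs 5′ to 3′ on the gene's own strand from 150 bases before to 30 after the start, in lower case with matches in capitals. Bases just after the listed start were found in a GENCODE transcript of the same gene for 5 of the 6, but not for BST2, whose longest GENCODE transcript is on the same strand and begins slightly further downstream. BST2 (chr8:71537443-71537622, minus strand), APOL9A (chr15:77411051-77411230, minus strand) and APOL9B (chr15:77728922-77729101, plus strand) are shown as genes that rose in both experiments and hold overlapping matches. IFITM3 (chr7:141010715-141010894, minus strand), which rose with DZNep, is set beside IFITM2 of the same cluster (chr7:140955932-140956111, minus strand) and beside PARP11 (chr6:127446690-127446869, plus strand). Both IFITM2 and PARP11 hold a match in the stretch printed and were not called in either experiment. PARP11 has another listed window, at a start further downstream, that holds no match. Which PARP11 start these cells use was not tested.
BST2: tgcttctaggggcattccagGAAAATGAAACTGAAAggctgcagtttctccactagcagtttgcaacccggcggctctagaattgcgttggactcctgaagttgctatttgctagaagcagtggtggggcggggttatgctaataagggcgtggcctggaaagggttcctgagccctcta
APOL9A: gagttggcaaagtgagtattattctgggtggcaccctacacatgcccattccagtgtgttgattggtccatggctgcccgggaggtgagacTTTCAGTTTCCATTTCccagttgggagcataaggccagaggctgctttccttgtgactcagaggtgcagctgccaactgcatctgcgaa
APOL9B: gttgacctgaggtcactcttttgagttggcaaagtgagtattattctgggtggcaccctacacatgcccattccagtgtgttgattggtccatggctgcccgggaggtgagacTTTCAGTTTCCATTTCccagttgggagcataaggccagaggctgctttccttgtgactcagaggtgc
IFITM3: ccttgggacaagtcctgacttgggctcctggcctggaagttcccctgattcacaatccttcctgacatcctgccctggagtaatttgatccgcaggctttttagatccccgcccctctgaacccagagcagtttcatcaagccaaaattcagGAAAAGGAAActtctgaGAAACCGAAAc
IFITM2: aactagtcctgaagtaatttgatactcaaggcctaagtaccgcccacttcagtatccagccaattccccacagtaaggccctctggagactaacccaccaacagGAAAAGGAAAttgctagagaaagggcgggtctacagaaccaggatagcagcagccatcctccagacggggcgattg
PARP11: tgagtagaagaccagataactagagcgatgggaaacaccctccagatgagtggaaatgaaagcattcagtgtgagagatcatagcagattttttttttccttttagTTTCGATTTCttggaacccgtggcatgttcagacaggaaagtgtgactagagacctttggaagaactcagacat

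A match to the element was present in the window of 14 of the 31 genes (45.2%), against 3.99% of the 27025 genes with a window, or 3.44% of 32851 windows. It was present for 7 of the 20 genes with a window that rose with DZNep, for 2 of the 4 that were not called (IFITM2, and PARP11 in 1 of its 2 windows), and for 5 of the 7 below the filter (DDX60, TRIM30A, TRIM30D, PHF11A and PHF11B). XAF1, LGALS3BP, SAMD9L, SP100 and IFI44, whose log2 changes with DZNep were between 1.23 and 1.97, had no match in their windows. The search required exactly 2 bases between the repeated TTTC. Repeats at other spacings, as in the windows of XAF1, LGALS3BP, SAMD9L and IFI44, were not counted. The windows of APOL9A and APOL9B were identical over the 278 bases they shared when 1 was shifted by 22 bases, and those of PHF11A and PHF11B were identical at 98.2% of 279 bases. Those of TRIM30A and TRIM30D were identical at 93.6% of 295 bases. All of these pairs are among the 14 genes with a match, so the 14 are not independent of each other. The best alignment without gaps of the IFITM2 and IFITM3 windows was identical at 37.2% of 247 bases. The gamma-activated site TTCNNNGAA was found in the windows of 5 of the 31 genes (16.1%), against 9.55% of all genes with a window. A match is a description of the letters only, and windows for MX1, MX2, IFI27, IFI27L2A, RTP4, PARP9, PARP10, PARP14 and TOR3A were not analysed here.

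**Figure D2:**
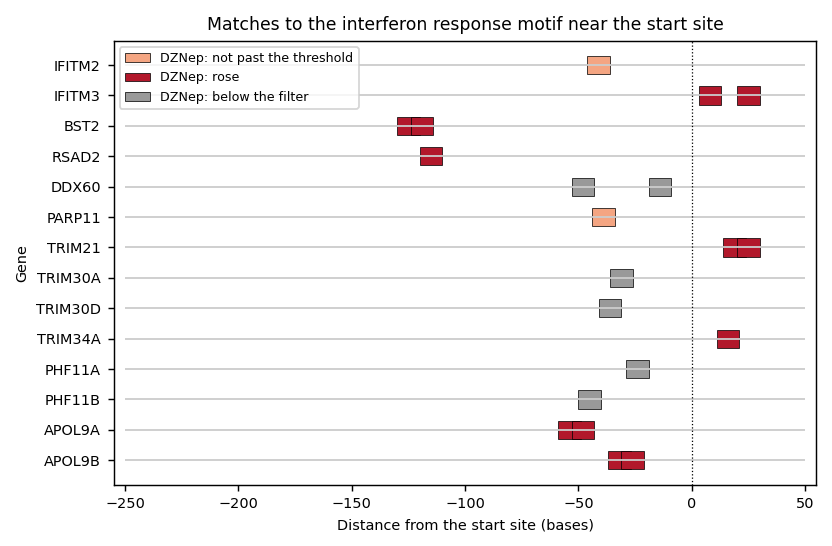
Position of each match to TTTCNNTTTC (boxes) along the first listed promoter window of the 14 genes that hold one (rows), in bases from the start site (x axis, 0 at the dotted line), coloured by the gene's result with DZNep. The boxes of BST2 and RSAD2 lie further upstream than those of the other 12 genes, and the 2 genes that were not past the threshold, IFITM2 and PARP11, hold matches near the start as well.

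Of the 4 membrane restriction genes, BST2, IFITM1 and IFITM3 rose with DZNep and IFITM2 was not called. BST2 stood at 10.5, 11.0 and 10.9 RPKM in the 3 DMSO libraries and at 34.5, 34.7 and 41.0 RPKM in the 3 DZNep libraries (log2 change 1.67, SE 0.0708, adjusted p = 6.75e-06). Every DZNep library was far above every DMSO library, with DZNep 3 the highest. IFITM3, the most abundant gene of the set, stood at 1901, 1727 and 1688 RPKM in DMSO and at 2275, 2377 and 2524 RPKM with DZNep (log2 change 0.43, SE 0.0707, adjusted p = 0.00453). IFITM1 stood at 194, 166 and 170 RPKM in DMSO and at 256, 254 and 264 RPKM with DZNep (log2 change 0.55, SE 0.0672, adjusted p = 0.00132). For both genes the 2 groups did not overlap, and the mean RPKM ratios were 1.35 and 1.46. IFITM2, which lies next to IFITM1 in the same cluster, stood at 672, 634 and 629 RPKM in DMSO and at 644, 674 and 646 RPKM with DZNep. Its groups overlapped, and the log2 change was 0.02 with a 95% interval of -0.10 to 0.15. Of the 50-base words of the IFITM2 transcript, 48.5% also occur in transcripts of another gene, so its level depends on how the authors assigned shared reads.

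Among the dynamin-like, RNA and nucleotide effectors, MX2, RSAD2 and MX1 rose. MX2, a dynamin-like GTPase, stood at 0.535, 0.366 and 0.448 RPKM in DMSO and at 2.68, 2.77 and 2.61 with DZNep (log2 change 1.35, SE 0.0728, adjusted p = 2.54e-05). RSAD2, or viperin, an enzyme that makes a chain-terminating nucleotide, stood at 0.234, 0.285 and 0.196 RPKM in DMSO and at 2.24, 2.03 and 2.15 with DZNep (log2 change 1.34, SE 0.0732, adjusted p = 2.59e-05). Both were below 1 RPKM in each DMSO library and above 2 RPKM in each DZNep library. MX1 stood at 1.89, 1.61 and 1.29 RPKM in DMSO and at 4.37, 4.60 and 4.04 with DZNep (log2 change 1.05, SE 0.0929, adjusted p = 0.000313), again without overlap. In the RefSeq gene table of build GRCm38, whose reference strain is C57BL/6J, MX1 and MX2 are annotated as transcribed pseudogenes, so that their levels measure transcripts and not functional protein. ISG20, an exoribonuclease, was well expressed at 60.4, 59.5 and 61.0 RPKM in DMSO and at 70.8, 66.5 and 62.3 with DZNep. Its libraries did not overlap, but its log2 change of 0.14 (95% interval 0.01 to 0.27) had an adjusted p of 0.101, which became 0.0439 without DZNep 3.

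The PARP family acts through ADP-ribosylation, and 5 of its 6 genes here, counting DTX3L, rose with DZNep. PARP14, which attaches mono-ADP-ribose to proteins, stood at 5.92, 6.27 and 6.78 RPKM in DMSO and at 14.8, 14.1 and 14.2 with DZNep (log2 change 1.07, SE 0.0563, adjusted p = 2.43e-05). PARP12, a further mono-ADP-ribosyltransferase, stood at 9.12, 8.59 and 8.59 RPKM in DMSO and at 15.3, 15.5 and 15.3 with DZNep (log2 change 0.74, SE 0.0453, adjusted p = 4.19e-05). DTX3L, the ubiquitin ligase that pairs with PARP9, stood at 9.21, 9.06 and 9.41 RPKM in DMSO and at 15.7, 15.5 and 16.5 with DZNep (log2 change 0.72, SE 0.0459, adjusted p = 5.1e-05). In all 3 the replicates lay close together and the groups were well apart. PARP9 and PARP10 rose by 0.65 and 0.73 on the log2 scale. PARP11 was the exception, at 2.87, 2.55 and 3.02 RPKM in DMSO and 2.47, 2.26 and 2.61 with DZNep. Its groups overlapped, and the log2 change of -0.15 had a 95% interval of -0.31 to 0.02 and an adjusted p of 0.161. PARP14, DTX3L and PARP9 lie next to each other on chromosome 16, with 0 protein-coding genes between neighbours in the RefSeq gene order of GRCm38.

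TRIM proteins are ubiquitin ligases, and the 2 that could be tested both rose. TRIM34A stood at 1.81, 1.43 and 1.48 RPKM in DMSO and at 4.71, 3.90 and 4.24 with DZNep (log2 change 1.04, SE 0.0838, adjusted p = 0.000209), although 41.3% of its 50-base words also occur in TRIM34B. TRIM21, a cytosolic antibody receptor, stood at 3.30, 3.94 and 3.67 RPKM in DMSO and at 6.98, 6.45 and 7.63 with DZNep (log2 change 0.79, SE 0.0753, adjusted p = 0.000445). Neither gene overlapped between groups. The nuclear body genes divided. SP100, a resident protein of these bodies, stood at 0.732, 0.812 and 1.14 RPKM in DMSO and at 3.82, 3.01 and 3.50 with DZNep (log2 change 1.23, SE 0.104, adjusted p = 0.000246). PML, which builds the bodies, stood at 12.0, 12.6 and 13.4 RPKM in DMSO and at 16.2, 15.6 and 13.8 with DZNep (log2 change 0.25, SE 0.0685, adjusted p = 0.0324). DZNep 3 was only slightly above DMSO 3, and the PML call was lost in 4 of the 6 fits that left out 1 library, where the adjusted p was 0.0694 (DMSO 1 left out), 0.103 (DMSO 2), 0.0844 (DZNep 1) and 0.107 (DZNep 2). SP110, a relative of SP100 on the same chromosome, stood at 1.72, 1.94 and 1.50 RPKM in DMSO and at 1.55, 2.24 and 1.34 with DZNep, with overlapping groups and a log2 change of -0.02 (95% interval -0.31 to 0.27). As 43.9% of its 50-base words also occur in another gene, its level too depends on how shared reads were assigned. PHF11D, a PHD finger protein and the only PHF11 gene above the filter, rose from 2.10, 2.23 and 2.29 RPKM in DMSO to 5.47, 5.48 and 5.74 with DZNep (log2 change 1.04, SE 0.0541, adjusted p = 2.43e-05).

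XAF1 and IFI27L2A, which encode a pro-apoptotic zinc finger protein and a small membrane protein of the ISG12 family, were among the genes that rose most. XAF1 stood at 1.23, 1.01 and 1.18 RPKM in DMSO and at 7.21, 7.54 and 7.27 with DZNep (log2 change 1.97, SE 0.0607, adjusted p = 1.52e-06). IFI27L2A stood at 3.04, 2.44 and 1.80 RPKM in DMSO and at 15.1, 12.5 and 12.4 with DZNep (log2 change 2.08, SE 0.133, adjusted p = 5.26e-05). The XAF1 replicates were tight in both groups, while IFI27L2A varied more in DMSO, and neither gene overlapped between groups.

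All 6 tested genes of the group of signalling modulators rose. RTP4, a chaperone of membrane receptors, stood at 1.50, 0.786 and 1.61 RPKM in DMSO and at 18.0, 17.7 and 16.7 with DZNep (log2 change 3.03, SE 0.133, adjusted p = 7.53e-06). Its log2 change was the largest among the 32 genes tested, with a mean RPKM ratio of 13.5. SAMD9L, a restriction factor of poxviruses, stood at 7.80, 8.44 and 8.27 RPKM in DMSO and at 22.1, 20.3 and 22.4 with DZNep (log2 change 1.30, SE 0.0550, adjusted p = 6.75e-06). IFI44 stood at 0.559, 0.494 and 0.458 RPKM in DMSO and at 3.34, 2.76 and 3.17 with DZNep (log2 change 1.44, SE 0.0777, adjusted p = 2.54e-05). None of the 3 overlapped between groups. NMI and IFI35, which bind each other, rose by 0.87 and 0.82 on the log2 scale. TRAFD1, a feedback inhibitor of innate signalling, rose by 0.16 (SE 0.0411, adjusted p = 0.0249), the smallest change called. That call was lost without DMSO 2 (adjusted p = 0.0943), DMSO 3 (0.064), DZNep 1 (0.0677) or DZNep 2 (0.0847).

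The 4 genes of the last group all rose. APOL9A, a lipid-binding apolipoprotein L, stood at 0.914, 1.20 and 1.42 RPKM in DMSO and at 9.18, 9.86 and 8.71 with DZNep (log2 change 2.24, SE 0.0912, adjusted p = 5.45e-06). Its near copy APOL9B stood at 0.433, 0.574 and 0.633 RPKM in DMSO and at 5.90, 6.07 and 5.86 with DZNep (log2 change 2.17, SE 0.0686, adjusted p = 1.52e-06). The genes share 57.5% of the 50-base words of APOL9A and 51.4% of those of APOL9B, so that the split of reads between them is uncertain. LGALS3BP, a secreted glycoprotein that binds galectin-3, stood at 20.0, 19.5 and 20.1 RPKM in DMSO and at 73.6, 65.0 and 60.1 with DZNep (log2 change 1.68, SE 0.0729, adjusted p = 7.4e-06). Every DZNep library exceeded every DMSO library for these 3 genes. TOR3A, an ATPase of the endoplasmic reticulum, rose by 0.48 on the log2 scale (SE 0.0431, adjusted p = 0.000328).

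The remaining 8 genes were below a mean of 1 RPKM over the chemical table and were described by level only. IFI27, the neighbour of IFI27L2A, stood at 0.0480, 0.115 and 0.0416 RPKM in DMSO and at 1.47, 1.42 and 1.62 with DZNep. CMPK2, a mitochondrial nucleotide kinase next to RSAD2, stood at 0.425, 0.360 and 0.352 and 1.68, 1.47 and 1.55 RPKM. DDX60, a helicase, stood at 0.126, 0.0679 and 0.101 and 0.749, 0.729 and 0.696 RPKM. For each of these 3 the lowest DZNep library was above the highest DMSO library. PHF11B had means of 0.322 ± 0.0280 RPKM in DMSO and 0.935 ± 0.143 RPKM with DZNep (SD, n = 3 in each group), and PHF11A and TRIM30A reached at most 0.398 and 0.418 RPKM with DZNep. PHF11A and PHF11B share 35.2% and 47% of their 50-base words with other genes, mostly with each other. TRIM30D did not exceed 0.108 RPKM, and EPSTI1 was listed at 0 in all 10 libraries. In a fit without the filter 6 of these 8 were called up (IFI27, CMPK2, DDX60, PHF11A, PHF11B and TRIM30A), TRIM30D was not (adjusted p = 0.0804), PML lost its call (adjusted p = 0.0642), and the total became 33 of 39, against 10.3% of the 17133 genes then tested.

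**Figure D3:**
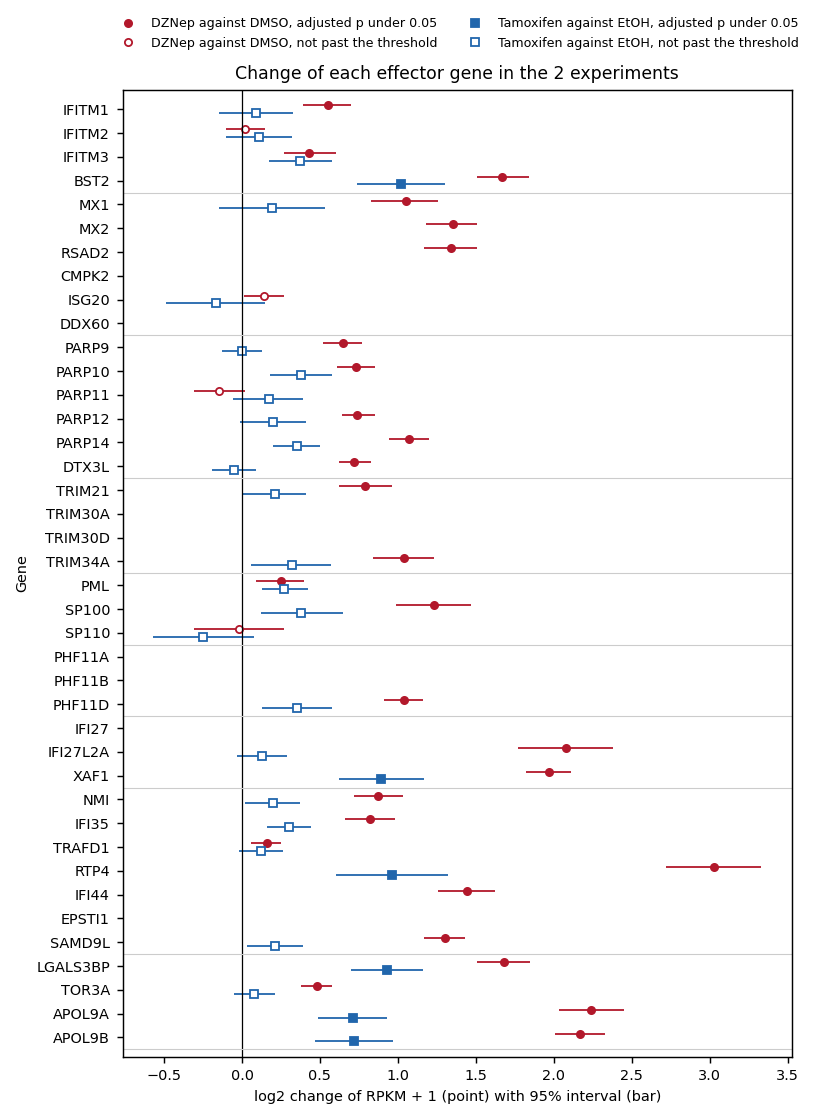
Difference of mean log2(RPKM + 1) for each gene (rows, by role group) with its 95% interval (bars), for DZNep against DMSO (red circles) and Tamoxifen against EtOH (blue squares), where filled symbols passed the threshold. Rows without a symbol were below the filter. Filled red circles run from TRAFD1 at 0.16 to RTP4 at 3.03, and the 6 filled blue squares lie between 0.71 and 1.02.

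With Tamoxifen, 6 of the 29 genes tested rose and 0 fell. These were BST2, RTP4, LGALS3BP, XAF1, APOL9B and APOL9A, each of which had also risen with DZNep. Among all 11123 genes tested 0.692% were called up, 1.38% down and 2.07% in either direction. The median log2 change was 0.21 over the 29 genes and 0.04 over all genes tested. Without adjustment 16 of the 29 had p under 0.05, as did 2831 of all 11123 genes tested. The Tamoxifen libraries were both above both EtOH libraries for 22 genes, below them for 2 and overlapping for 5. Of all genes tested, 36.6% were higher and 23.2% lower in this sense. Of the 29, 3 (XAF1, SP100 and APOL9B) had an EtOH mean under 1 RPKM and passed the filter through their Tamoxifen level, and 4 of the 26 with an EtOH mean of at least 1 RPKM rose. MX2, RSAD2 and IFI44 were tested with DZNep only, as their mean over the genetic table was under 1 RPKM.

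BST2 stood at 9.76 and 10.8 RPKM in EtOH 1 and 2 and at 19.6 and 24.3 RPKM in Tamoxifen 1 and 2 (log2 change 1.02, SE 0.111, adjusted p = 0.0305). LGALS3BP stood at 20.0 and 17.8 RPKM in EtOH and at 34.3 and 39.3 with Tamoxifen (log2 change 0.93, SE 0.0912, adjusted p = 0.0276). Both genes were about as high in EtOH as in DMSO, and their mean RPKM ratios were 2.13 and 1.95. RTP4 stood at 1.14 and 1.28 RPKM in EtOH and at 2.76 and 3.93 with Tamoxifen (log2 change 0.96, SE 0.143, adjusted p = 0.0462). XAF1 stood at 0.912 and 0.935 RPKM in EtOH and at 2.28 and 2.90 with Tamoxifen (log2 change 0.89, SE 0.110, adjusted p = 0.0344). For each of these 4 genes Tamoxifen 2 was above Tamoxifen 1 and neither overlapped the EtOH libraries. APOL9A stood at 1.13 and 1.08 RPKM in EtOH and at 2.30 and 2.62 with Tamoxifen (log2 change 0.71, SE 0.0879, adjusted p = 0.0344). APOL9B stood at 0.576 and 0.637 RPKM in EtOH and at 1.52 and 1.79 with Tamoxifen (log2 change 0.72, SE 0.0990, adjusted p = 0.0395). The pair again moved by nearly the same amount and without overlap.

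These 6 calls depended on single libraries and on the filter. The number called was 0 without Tamoxifen 2, 3 without Tamoxifen 1, 4 without EtOH 1 and 9 without EtOH 2, in fits where the lone library was assumed to vary like the other group. It was also 0 of 39 in the fit without the filter, where 0.0061% of all genes were called. Unadjusted p was under 0.05 there for 18 of the 39 and for 3182 of all 16381 genes tested. The log2 changes of the 6 genes stayed between 0.65 and 1.17 when 1 library was left out. In those fits the share of all genes called moved too, and was lowest without Tamoxifen 2 and highest without EtOH 2.

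**Figure D4:**
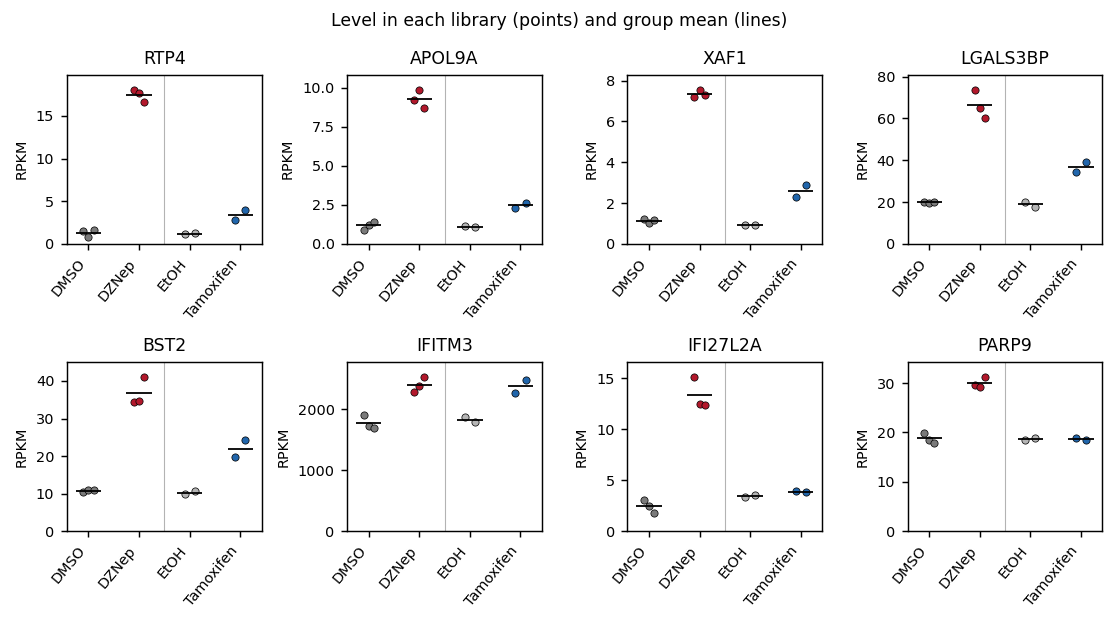
RPKM (y axes, from 0) in each library (points) with the group mean (lines) for 8 genes, in the chemical experiment (left of the grey line) and the genetic one (right of it). RTP4, APOL9A, XAF1, LGALS3BP and BST2 were higher with DZNep and, to a smaller extent, with Tamoxifen, IFITM3 was higher with both by a similar amount, and IFI27L2A and PARP9 were well above the vehicle with DZNep but lay close to it with Tamoxifen, with Tamoxifen means of 3.88 and 18.7 RPKM against EtOH means of 3.46 and 18.7.

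The other 23 genes tested with Tamoxifen were not called. Closest to the threshold were PARP14 at 6.15 and 6.31 RPKM in EtOH and 7.98 and 8.46 with Tamoxifen (log2 change 0.35, SE 0.0588, adjusted p = 0.0549), and IFI35, with a log2 change of 0.30 (adjusted p = 0.0616). IFITM3 stood at 1867 and 1793 RPKM in EtOH and at 2265 and 2483 with Tamoxifen (log2 change 0.37, SE 0.0823, adjusted p = 0.085). PML had a log2 change of 0.27 (adjusted p = 0.0786) and PARP10 of 0.38 (adjusted p = 0.076). For these 5 genes both Tamoxifen libraries were above both EtOH libraries, as for 36.6% of all genes tested. As the 5 were named for their small adjusted p, this separation adds nothing to it. Lower means with Tamoxifen were seen for SP110 (1.28 and 1.86 RPKM in EtOH, 1.13 and 1.17 with Tamoxifen, log2 change -0.25), ISG20 (log2 change -0.17) and DTX3L (9.80 and 9.92 and 9.26 and 9.71 RPKM, log2 change -0.05), and none of these was called. PARP9 stood at 18.5 and 18.9 RPKM in EtOH and at 18.9 and 18.5 with Tamoxifen, a log2 change of 0.00 with a 95% interval of -0.13 to 0.13. IFI27L2A stood at 3.39 and 3.53 and 3.92 and 3.83 RPKM (log2 change 0.13, 95% interval -0.03 to 0.29). The genes below the filter in this table were low in every library, the highest being MX2 at 0.688 and 0.777 RPKM, CMPK2 at 0.499 and 0.754 and IFI44 at 0.764 and 0.919 with Tamoxifen, against 0.382 and 0.297, 0.284 and 0.473 and 0.436 and 0.469 with EtOH. RSAD2 stood at 0.308 and 0.367 RPKM in EtOH and at 0.356 and 0.439 with Tamoxifen, where the groups overlapped.

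The log2 change was higher with DZNep than with Tamoxifen for 22 of the 29 genes tested in both experiments, and lower for 0, by a test of the difference itself. The test was a limma contrast of the DZNep effect minus the Tamoxifen effect over all 10 libraries, in which only differences within a table enter. XAF1, SP100 and APOL9B, all among the 22, had a vehicle mean under 1 RPKM in at least 1 experiment and passed the filter there through their treated level. Of all 10994 genes tested, 10.7% were called higher, 9.2% lower and 19.9% in either direction. The median difference was 0.66 over the 29 genes and -0.01 over all genes. RTP4 had the largest difference among the 29, 2.07 (SE 0.219, adjusted p = 0.000324), and IFI27L2A the next, 1.95 (SE 0.186, adjusted p = 0.000196). The smallest adjusted p-values belonged to APOL9B (difference 1.44, SE 0.108, adjusted p = 5.16e-05), SAMD9L (1.09, 0.000103), APOL9A (1.53, 0.000128) and DTX3L (0.78, 0.000128). DTX3L and its partner PARP9 (difference 0.64, adjusted p = 0.000667) thus differed between treatments although their Tamoxifen changes were near 0.

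Of the 29 genes, 6 rose in both experiments, 19 were called up with DZNep alone, 0 with Tamoxifen alone and 4 in neither. Of the genes that rose with DZNep, 24% were also called with Tamoxifen, and of those that rose with Tamoxifen, 100% were also called with DZNep. Over all genes tested, 16.6% were called up with DZNep and 0.692% with Tamoxifen. As most of the 29 were called with DZNep, the 100% says little about agreement between the experiments. XAF1 and APOL9B, which are among the 6, passed the genetic filter through their Tamoxifen level. For the 6 genes that rose in both, the Tamoxifen change was between 0.318 (RTP4) and 0.608 (BST2) of the DZNep change on the log2 scale, with a median of 0.394. These 6 were picked by their Tamoxifen call, which favours larger Tamoxifen changes, so the median does not describe the other genes. Among the 19 called with DZNep alone the ratio ran from -0.0704 (DTX3L) to 1.105 (PML). The 2 experiments used separate vehicle libraries, and over the 29 genes Pearson's r between their log2 changes was 0.77 and Spearman's rho 0.72, given as a description across genes, which are not independent. For 7 genes the difference did not pass the threshold. Of these, IFITM3 (0.06, 95% interval -0.19 to 0.31), PML (-0.03, -0.25 to 0.20), TRAFD1 (0.04, -0.10 to 0.18) and IFITM2 (-0.09, -0.30 to 0.12) had differences near 0. SP110 (0.23, 95% interval -0.21 to 0.67), ISG20 (0.31, 0.01 to 0.60) and PARP11 (-0.31, -0.56 to -0.06) had differences further from 0 that were not called, and the intervals of ISG20 and PARP11, which are not adjusted, did not include 0 (adjusted p = 0.131 and 0.078). The smaller differences of IFITM1 (0.46, adjusted p = 0.0246) and PARP10 (0.35, 0.0242) each lost their call in 5 of the 10 fits without 1 library, with adjusted p-values up to 0.0855 (IFITM1, without EtOH 1) and 0.0801 (PARP10, without Tamoxifen 1).

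**Figure D5:**
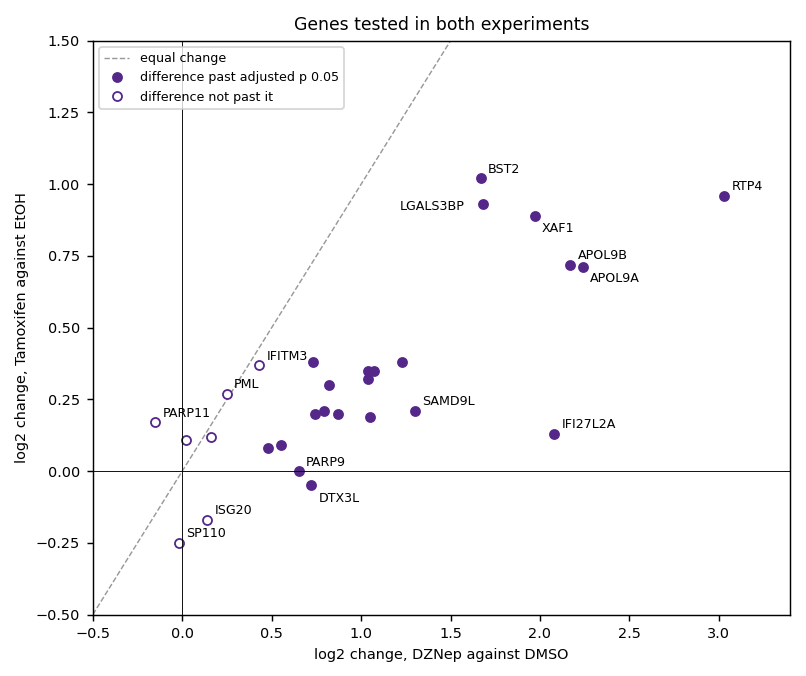
Change of log2(RPKM + 1) with DZNep (x axis) against the change with Tamoxifen (y axis) for the 29 genes tested in both experiments, with filled points where the difference between experiments passed the threshold and a dashed line of equal change. For 26 of the 29 the change with DZNep was the larger, IFI27L2A, PARP9 and DTX3L lie to the right near a Tamoxifen change of 0, and IFITM3 and PML lie close to the line.

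The rest of the interferon pathway was described from lists of other genes. Of 16 tested receptors, kinases and transcription factors, 6 rose with DZNep and 0 fell (16.6% of all genes rose). Among them were the transcription factors STAT2, IRF3, IRF7 and IRF9 and the ISG15 protease and feedback inhibitor USP18. IRF7 stood at 5.78, 5.87 and 5.40 RPKM in DMSO and at 23.3, 21.5 and 21.0 with DZNep (log2 change 1.78, SE 0.0558, adjusted p = 1.52e-06), and IRF9 at 11.7, 12.0 and 13.1 and 35.9, 36.0 and 33.7 (log2 change 1.45). STAT2 changed by 1.18. With Tamoxifen IRF7, IRF9 and USP18 rose, by 0.76, 0.65 and 0.52 on the log2 scale, 3 of 17 tested (0.692% of all genes rose). STAT2 had a log2 change of 0.34 with Tamoxifen (adjusted p = 0.0708) and did not pass. The interferon receptor genes IFNAR1, IFNAR2, IFNGR1, IFNGR2, IFNLR1 and IL10RB were not called with DZNep or with Tamoxifen. By the test of the difference, 5 of 16 genes of this list were called higher and 1 lower, against 10.7% and 9.2% of all genes. Of 29 listed interferon-induced genes of other families, such as ISG15, IFIT1 and OAS1A, 22 were tested with DZNep and 18 with Tamoxifen. All 22 rose with DZNep and 4 of the 18 with Tamoxifen, against 16.6% and 0.692% of all genes tested. HERC6, IFIT3, DHX58 and ZBP1 had a DMSO mean under 1 RPKM and passed the filter through their DZNep level. IRGM2 and IGTP had an EtOH mean under 1 RPKM and passed through their Tamoxifen level, but were not called with Tamoxifen. Among 9 interferon genes, IFNE alone passed the filter, at 2.01, 2.12 and 2.25 RPKM in DMSO and 0.592, 0.781 and 0.749 with DZNep (log2 change -0.87, SE 0.0758, adjusted p = 0.000284), which was a fall. IFNB1 was listed at 0 in 8 libraries and at 0.127 and 0.0507 RPKM in DZNep 2 and 3, IFNL3 was at 0.0656 RPKM in DZNep 1 and listed at 0 in the other 9, and IFNA1, IFNA2, IFNA4, IFNG, IFNL2 and IFNK were listed at 0 in all 10.

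Markers of other cell types also moved with the treatments. The 15 immune markers summed to between 43.8 and 48.7 RPKM in DMSO and between 60 and 61.6 with DZNep, and to between 47.8 and 51.1 in EtOH and between 63.4 and 67.7 with Tamoxifen. CD14 and CD68 made up nearly all of this, and CD14 rose in both experiments (log2 change 0.44 with DZNep and 0.50 with Tamoxifen), while PTPRC, the pan-leukocyte marker, did not exceed 0.00494 RPKM. FCER1G, a signalling chain of myeloid cells, was low but higher with DZNep without overlap (0.0598, 0.174 and 0 RPKM in DMSO, 0.436, 0.238 and 0.316 with DZNep). The 10 fibroblast and smooth muscle markers summed to between 3.48 and 4.67 RPKM in DMSO and between 8.69 and 9.82 with DZNep, and DCN and ACTA2 rose (log2 changes 0.92 and 1.11). COL1A1, PDGFRA, PDGFRB and VIM, each under 1 RPKM, had lower means with DZNep in overlapping groups (RPKM ratios 0.401, 0.483, 0.588 and 0.686). The 10 fibroblast and smooth muscle markers summed to between 3.77 and 4.24 RPKM in EtOH and between 2.92 and 4.51 with Tamoxifen. ACTA2 was lower with Tamoxifen without overlap (RPKM ratio 0.351). Among epithelial markers, KRT14 changed in both experiments, by 0.85 with DZNep and by -0.49 with Tamoxifen. The 5 endothelial markers summed to between 0.139 and 0.145 RPKM in DMSO and between 0.256 and 0.472 with DZNep, and to between 0.0904 and 0.132 in EtOH and between 0.159 and 0.248 with Tamoxifen. PECAM1 made up most of these sums (RPKM ratios 2.47 and 1.85), and CDH5 was listed at 0 in all 10 libraries. The part of these shifts in the changes of the antiviral genes was not tested.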

How the data were processed

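RNA was sequenced from 10 libraries of mouse prostate organoids. Per the labels' protocols, RNA was extracted with TRIzol and libraries were made with the Illumina TruSeq Stranded mRNA kit from 500 ng of RNA. The submitters' processing notes name STAR, Cufflinks, bcl2fastq 2.18 and build mm9. Strand use and the handling of reads with several alignments are not given in the sources used here. For each experiment the authors deposited 1 table of log2 RPKM values with a floor of 0, read here as log2(RPKM + 1), and RPKM was recovered from them. The genetic experiment's table had 2 rows without values and 27 with symbols turned into dates, all left out.

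Whole tables were tested with limma 3.58.1 in R 4.3.3 (mean trend, two-sided, Benjamini-Hochberg over the genes whose mean reached 1 RPKM, threshold 0.05), each experiment alone (4 and 2 residual degrees of freedom) and for the difference in 1 fit of all libraries (6). The procedure was tested on simulated data. Named genes followed a rule: every gene of the set is accounted for, with per-library values for those called with Tamoxifen, up to 3 of smallest p per role group with DZNep, and up to 4 of smallest p for the difference. Other named genes come from lists of pathway and cell type genes, some of which are not reported here. The set was defined by symbol, and the genes and lists were chosen with earlier results of these data known. Alternatives were another pseudocount (0.1), a filter of 5 RPKM or none, trimmed mean scaling, quantile normalization, a fit with no trend, a fit with robust variances, a replicate block, a joint fit and leaving out each library. The figures were made in Python 3.11.15 with matplotlib 3.10.9.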

Additional observations from a re-analysis of the deposited data

Results flagged for a closer look

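The change of 22 genes differed between the experiments by the limma test of the DZNep effect minus the Tamoxifen effect, and this test is what brought them to notice. In log2 units, the differences above 1 were 2.07 for RTP4, 1.95 for IFI27L2A, 1.53 for APOL9A, 1.44 for APOL9B, 1.09 for SAMD9L and 1.07 for XAF1. Those of MX1 and SP100 were 0.85 each, that of DTX3L was 0.78 and that of LGALS3BP 0.76. PARP14 and TRIM34A differed by 0.72 each, PHF11D and NMI by 0.68 each, BST2 by 0.66 and PARP9 by 0.64. The smallest were 0.58 for TRIM21, 0.54 for PARP12, 0.52 for IFI35, 0.46 for IFITM1, 0.40 for TOR3A and 0.35 for PARP10. In every case the change was larger with DZNep. The agents, vehicles, library numbers and tables differ between the experiments, so the agent and the experiment cannot be told apart in these differences.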

How the results depend on the processing

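The DZNep count of 28 genes was 33 of 39 without the filter, 19 of 21 with a filter of 5 RPKM, 25 of 29 in the joint fit and 26 with the replicate block, and lay between 25 and 28 when 1 library was left out. The Tamoxifen count of 6 was 0 without the filter, 3 with a filter of 5 RPKM, 10 with robust variances, 10 with the replicate block and 11 in the joint fit, and lay between 0 and 9 when 1 library was left out. The count for the difference, 22, was 11 with a filter of 5 RPKM, where 16 genes were tested, 20 with the replicate block and between 19 and 22 when 1 library was left out. Same-numbered libraries did not deviate together (correlations 0.06, 0.06 and -0.07 in the chemical experiment and 0.04 in the genetic one), so the numbers were not taken to pair them. With the block PML and TRAFD1 lost their DZNep calls (adjusted p = 0.0984 and 0.106), IFITM1 and PARP10 those of the difference (0.0537 and 0.0615), and IFI35, PARP10, PARP14 and PML were called with Tamoxifen. The EZH2 log2 change with DZNep, -0.28, missed the threshold with the block (adjusted p = 0.0588) and lay between -0.33 and -0.24 when 1 library was left out. That with Tamoxifen lay between -0.06 and 0.21. Signs turned only for changes near 0: PARP9 with Tamoxifen (-0.03 under quantile normalization and -0.03 under trimmed mean scaling, and -0.01 to 0.02 without 1 library) and IFITM2 with DZNep (0.00 under trimmed mean scaling). Without 1 library they also turned for SP110 with DZNep (-0.15 to 0.08), IFITM1 with Tamoxifen (-0.04 to 0.22), and the differences of PML (-0.07 to 0.04), IFITM2 (-0.18 to 0.00) and IFITM3 (-0.01 to 0.13). The cause was not tested for any of these. Depth is known only relative to 1 library of each table, and with 2 libraries a group the genetic experiment has 2 residual degrees of freedom.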
